A study of Homo sapiens with 12 samples.

Results

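This report sets MDA-MB-231 cells that carried a short hairpin RNA against RIPOR3 (shRIPOR3) and were kept at 1% O2 against MDA-MB-231 cells that carried a control hairpin (shControl) and were kept in normoxia. The members are the 3 hypoxic shRIPOR3 libraries and the 3 normoxic shControl libraries, chosen by their labels, or 6 of the 12 libraries of the series. MDA-MB-231 is an established line from a human breast cancer, triple-negative and mesenchymal in character. The labels give the genotype as RIPOR3 knockdown or wild type, the hypoxic atmosphere as 1% O2 with 5% CO2 for 24 hours, and the same serum-containing medium for all cells. The remaining 6 libraries, 3 of hypoxic shControl and 3 of normoxic shRIPOR3 cells, serve here to show how each gene answered to hypoxia alone and to the hairpin alone. The study concerned RIPOR3 in breast tumour growth and metastasis. Its title links the stability of this message in hypoxia with METTL3, an RNA methyltransferase. The question taken here is which genes stood at the normoxic shControl level in hypoxic shRIPOR3 cells in spite of low oxygen, and which stayed changed.

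Cells sense low oxygen mainly through the hypoxia-inducible factors (HIFs). In normal oxygen, prolyl hydroxylases mark the HIF alpha subunits for destruction, and in hypoxia the subunits persist, pair with HIF1B and bind short DNA motifs beside genes for glucose uptake, glycolysis, angiogenesis and matrix modification. Long hypoxia also lowers messages for mitochondrial respiration and for ribosome production.

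Library totals were 51542128, 35556178 and 52526813 counts in hypoxic shRIPOR3 cells and 26392650, 14750734 and 28742565 counts in normoxic shControl cells, so depth differed between the groups. Of 24641 gene symbols, 15648 had enough reads to be tested. Levels of single genes are given as TMM-normalised CPM (counts scaled to a fixed library total), without correction for gene length, so they compare samples and not genes. All replicate pairs spread wider than counting noise (chi-square per degree of freedom 2.55 to 6.23). The labels do not call the replicates separate cultures, and p-values then reflect a spread that may be technical only. VIM, which mesenchymal cells express, had 560 to 587 CPM of the library total in hypoxic shRIPOR3 and 453 to 458 in normoxic shControl libraries. Other listed markers did not all go with that picture. TWIST1, also on the mesenchymal list, had at most 0.136 and 0.139 CPM of the total in the same order. KRT8, on the epithelial list, had 938 to 994 and 927 to 973. ESR1, the oestrogen receptor gene that this line is known to lack, had at most 0.247 CPM of the total in hypoxic shRIPOR3 and 0.174 in normoxic shControl libraries. XBP1, listed with ESR1 as a luminal breast marker, had 175 to 188 and 161 to 165 in the same order. The 13 of 16 blood and endothelial markers in the table summed to 14.9 to 16.0 CPM of the total in hypoxic shRIPOR3 and 15.7 to 17.4 in normoxic shControl libraries. The 9 of 10 fibroblast markers in the table summed to 14.4 to 15.6 CPM of the total in hypoxic shRIPOR3 and 15.5 to 18.0 in normoxic shControl libraries, and CD3E of T cells was at 0 in 9 of the 12 libraries.

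RIPOR3 itself was a rare message. Its gene spans 50586108 to 50691528 of chromosome 20, minus strand (GRCh38). Hypoxic shRIPOR3 libraries held 9, 3 and 11 RIPOR3 counts, hypoxic shControl libraries 33, 18 and 30, normoxic shRIPOR3 libraries 0, 0 and 1, and normoxic shControl libraries 7, 3 and 7. Per library total, hypoxic shRIPOR3 cells held 0.677 times the RIPOR3 counts of normoxic shControl cells, with an exact 95% interval for counting error of 0.346 to 1.35. The fitted difference did not pass the test (log2 fold change -0.66, edgeR adjusted p = 0.214), and at this depth a fall or a rise within that interval was not detectable. METTL3, the catalytic subunit of the m6A methyltransferase, had 57.6 ± 0.696 CPM in hypoxic shRIPOR3 and 70.7 ± 2.67 CPM in normoxic shControl cells (SD, n = 3 each). Its log2 fold change was -0.30 (SE 0.0395, edgeR adjusted p = 4.37e-07). It had 49.8 ± 1.90 CPM in hypoxic shControl and 76.7 ± 1.31 CPM in normoxic shRIPOR3 cells (SD, n = 3 each). METTL3 was thus lower in hypoxia in both lines, and higher in shRIPOR3 than in shControl cells at either oxygen level.

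Most expressed genes were not at the same level in the pair of groups. In edgeR's quasi-likelihood test 9735 genes passed an adjusted p of 0.05, or 62.2% of those tested. Of the called genes 4764 were higher in hypoxic shRIPOR3 cells (30.4% of those tested) and 4971 were lower (31.8%). A difference of at least 1.5-fold was called for 2094 higher genes (13.4%) and 1378 lower genes (8.81%). The 3 libraries of one group and the 3 of the other did not overlap for 10299 genes, or 65.8%. When raw library totals replaced the TMM factors, the median of all genes moved to 0.12 on the log2 scale, against 0.005 with TMM, and 62.2% of called genes were higher instead of 48.9%. Fold changes below are therefore relative to the bulk of the transcriptome. Where a gene is said to rise or fall and no other comparison is named, hypoxic shRIPOR3 is set against normoxic shControl cells.

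A gene was taken to stand at the normoxic shControl level where the 90% interval of its fold change lay within 5/4-fold either way, which held for 4348 genes, or 27.8%. Hypoxia-raised genes were those called at least 1.5-fold higher in hypoxic than in normoxic shControl cells, 2665 in all (17.0% of genes tested), and hypoxia-lowered genes those called at least 1.5-fold lower, 1157 in all (7.39%). That comparison uses the same normoxic shControl libraries as the one described here. Of the 2665 raised genes, 195 (7.32%) were at the normoxic shControl level in hypoxic shRIPOR3 cells. Another 1335 (50.1%) were still at least 1.5-fold higher, 393 (14.7%) were higher by less than 1.5-fold and 114 (4.28%) were lower than in normoxic shControl cells. The last 628 (23.6%) could not be placed at this margin, and their median level was 0.655 CPM. Of the 195 at the level, 48 were called higher and 16 lower than in normoxic shControl cells, by steps within the margin. Among the 1120 raised genes with a mean of at least 5 CPM, 170 (15.2%) were at the level and 583 (52.1%) still at least 1.5-fold higher.

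Genes lowered by hypoxia were placed in the same way. Of the 1157, 248 (21.4%) were at the level, 291 (25.2%) were still at least 1.5-fold lower and 446 (38.5%) were lower by less than 1.5-fold. Only 27 (2.33%) lay above the normoxic shControl level and 145 (12.5%) could not be placed. Of the 248 at the level, 105 were called lower and 13 higher than in normoxic shControl cells, by steps within the margin. Among the 833 lowered genes with a mean of at least 5 CPM, 234 (28.1%) were at the level and 175 (21.0%) still at least 1.5-fold lower. These counts hold for the 5/4-fold margin, and with a margin of 1.5-fold 596 raised and 677 lowered genes were at the level. With raw library totals 566 genes counted as lowered, 152 of them at the level. At the edge of the margin, FBXL17, FAM13A and WSB1 lay just inside, with log2 fold changes of 0.11, -0.23 and 0.25, and WDR60, RALGAPA2 and TRIML2 just outside, with 0.23, 0.19 and -0.22.

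**Figure D1:**
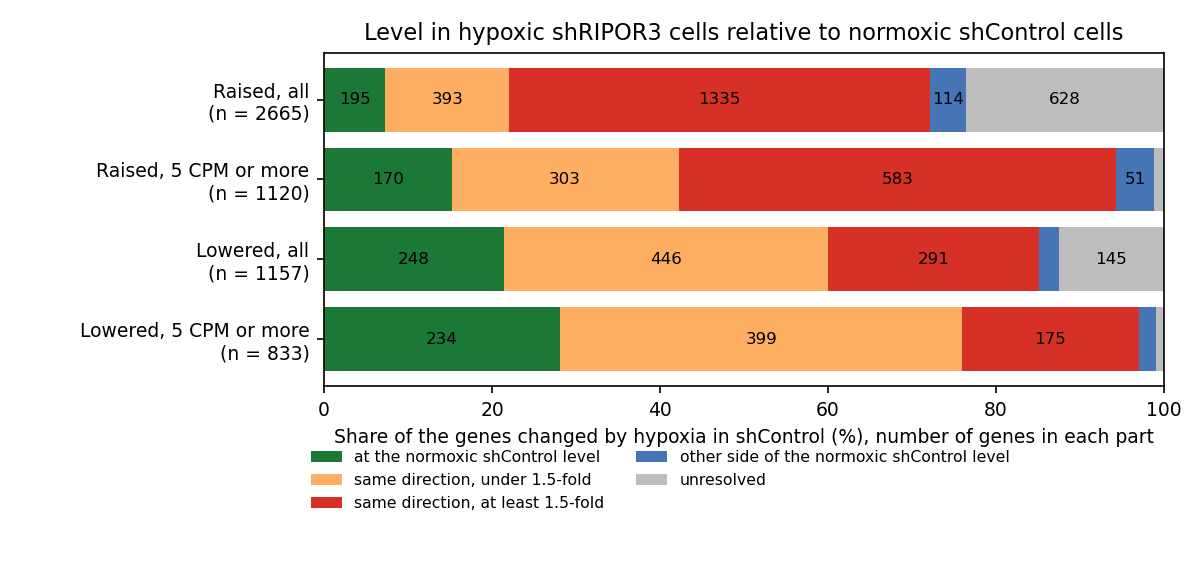
Share (%, x axis) of the genes raised or lowered by hypoxia in shControl cells whose level in hypoxic shRIPOR3 cells was at, beyond or on the other side of the normoxic shControl level, for all genes and for those with a mean of at least 5 CPM. Numbers in the bars are genes, and 195 of 2665 raised genes and 248 of 1157 lowered genes form the green parts on the left.

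The raised genes found at the normoxic shControl level included a cyclin, a mucin, a feedback inhibitor of the EGF receptor and a collagen-modifying enzyme. CCNG2, which encodes cyclin G2, an unconventional cyclin linked to cell cycle arrest, lies on chromosome 4 from 77157151 to 77433388. It had 9.49, 8.43 and 9.82 CPM in hypoxic shRIPOR3, 38.7, 40.3 and 44.4 CPM in hypoxic shControl, 3.70, 4.21 and 4.83 CPM in normoxic shRIPOR3, and 9.33, 9.12 and 9.41 CPM in normoxic shControl cells. The hypoxic shRIPOR3 and normoxic shControl libraries overlapped, with a 90% interval of -0.14 to 0.14 for the log2 fold change. CCNG2 was still higher in hypoxic than in normoxic shRIPOR3 cells, by a log2 fold change of 1.10, but in normoxia its log2 fold change of shRIPOR3 over shControl was -1.10.

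ERRFI1, the feedback inhibitor of the EGF receptor also known as MIG6, lies on chromosome 1 from 8004404 to 8026308. It had 152, 153 and 151 CPM in hypoxic shRIPOR3, 493, 500 and 477 CPM in hypoxic shControl, 83.6, 85.5 and 82.6 CPM in normoxic shRIPOR3, and 144, 153 and 146 CPM in normoxic shControl cells. The log2 fold change of hypoxic shRIPOR3 over normoxic shControl cells was 0.05 with a 90% interval of -0.02 to 0.11, and the 2 groups overlapped. EGFR itself, the receptor that ERRFI1 restrains, was not at the level. It had 412, 410 and 402 CPM in hypoxic shRIPOR3 and 203, 212 and 209 CPM in normoxic shControl cells, a log2 fold change of 0.97 (SE 0.0370, edgeR adjusted p = 1.1e-16) with no overlap.

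PLOD2, the lysyl hydroxylase that prepares collagen for cross-linking and a known HIF target, lies on chromosome 3 from 146069440 to 146163653. It had 74.5, 71.2 and 72.5 CPM in hypoxic shRIPOR3, 213, 222 and 213 CPM in hypoxic shControl, 38.8, 40.7 and 41.6 CPM in normoxic shRIPOR3, and 69.4, 70.8 and 69.6 CPM in normoxic shControl cells. Every hypoxic shRIPOR3 library was above every normoxic shControl library, yet by little, since the 90% interval of the log2 fold change was -0.01 to 0.12. PLAT, the tissue plasminogen activator, stood at 53.7 ± 0.585 CPM in hypoxic shRIPOR3, 160 ± 4.34 CPM in hypoxic shControl, 33.0 ± 0.254 CPM in normoxic shRIPOR3 and 52.0 ± 2.38 CPM in normoxic shControl cells (SD, n = 3 each). The cell-surface mucin MUC1 had 3.67 ± 0.0842 CPM in hypoxic shRIPOR3, 14.0 ± 0.596 CPM in hypoxic shControl and 3.74 ± 0.201 CPM in normoxic shControl cells (SD, n = 3 each).

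The other genes at the level were ARFGEF3, of a guanine nucleotide exchange factor family, LUCAT1, a long noncoding RNA, and ALPP, the placental alkaline phosphatase. ARFGEF3 had 13.1 ± 0.517 CPM in hypoxic shRIPOR3, 39.3 ± 2.16 CPM in hypoxic shControl and 12.6 ± 0.362 CPM in normoxic shControl cells (SD, n = 3 each). LUCAT1 differed from the others in its normoxic level, which was 3.22 ± 0.460 CPM in normoxic shRIPOR3 and 3.93 ± 0.459 CPM in normoxic shControl cells (SD, n = 3 each), and it had 4.05 ± 0.368 CPM in hypoxic shRIPOR3 and 13.1 ± 0.821 CPM in hypoxic shControl cells. ALPP had 2.29 ± 0.0840 CPM in hypoxic shRIPOR3 and 2.38 ± 0.265 CPM in normoxic shControl cells (SD, n = 3 each), and it has near-identical relatives, so its count is uncertain. For all 8 genes the hypoxic rise differed between shRIPOR3 and shControl cells in the interaction test, and LUCAT1 showed the widest gap, with a rise of 0.28 on the log2 scale in shRIPOR3 and 1.71 in shControl cells. The 8 were ranked by their rise in shControl cells among genes at the level, with libraries that the test also uses. Such a result describes them, and 23.2% of all genes tested differed too.

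**Figure D2:**
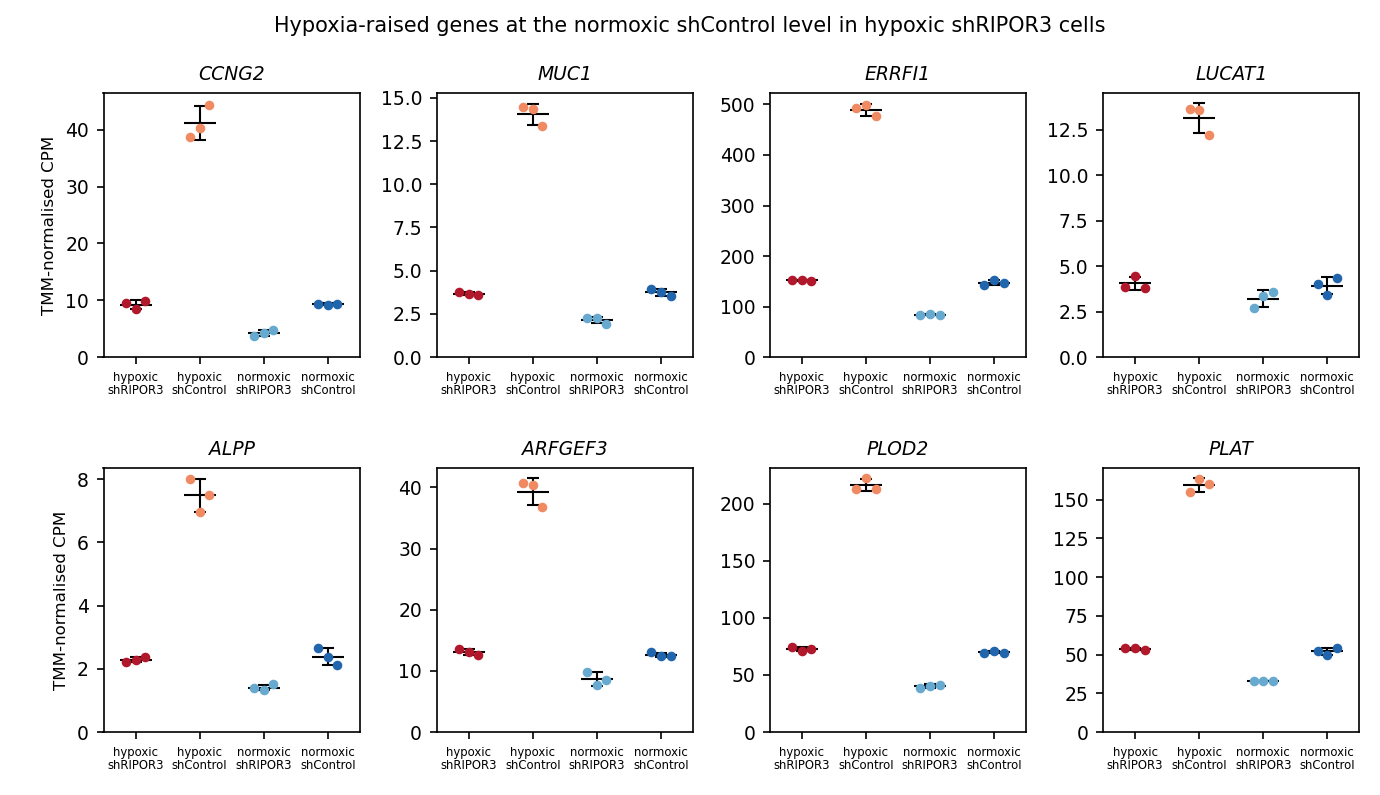
TMM-normalised CPM (y axis, from 0) of the 8 raised genes at the normoxic shControl level, with 1 point per library and the mean and SD of 3 libraries in black. In every panel the hypoxic shRIPOR3 points sit beside the normoxic shControl points and far under the hypoxic shControl points, and normoxic shRIPOR3 cells have the lowest mean.

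The 195 raised genes at the level mostly had a low starting point in the hairpin line. Their median log2 fold change was 0.05 for hypoxic shRIPOR3 over normoxic shControl, 0.78 for hypoxic over normoxic shControl, -0.39 for normoxic shRIPOR3 over normoxic shControl and 0.43 for hypoxic over normoxic shRIPOR3 cells. Of them, 144 were called lower and 0 higher in normoxic shRIPOR3 than in normoxic shControl cells, where 45.7% of all genes tested were called, 20.6% lower and 25.1% higher. Between hypoxic and normoxic shRIPOR3 cells 173 of the 195 were called higher, against 25.2% of all genes. These comparisons share libraries with those that define the set, so the counts describe it and do not test it. Most of the set was thus called higher in hypoxia in shRIPOR3 cells too, from a normoxic level called lower.

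The raised genes with the highest fold of hypoxic shRIPOR3 over normoxic shControl cells held both classic hypoxia genes and matrix and signalling genes. CA9, carbonic anhydrase IX, a membrane enzyme that handles acid outside the cell and a standard marker of hypoxia, lies on chromosome 9 from 35673856 to 35681159. It had 1.65, 1.33 and 1.5 CPM in hypoxic shRIPOR3, 16.4, 15.1 and 15.2 CPM in hypoxic shControl, 0.0661, 0.0457 and 0 CPM in normoxic shRIPOR3, and 0.158, 0.140 and 0.108 CPM in normoxic shControl cells. The hypoxic shRIPOR3 libraries stood far above normoxic shControl (log2 fold change 3.46, SE 0.300, edgeR adjusted p = 3.5e-10) and far under hypoxic shControl. PPFIA4, which encodes the scaffold protein liprin-alpha-4, had 11.4, 9.73 and 10.1 CPM in hypoxic shRIPOR3, 45.3, 44.5 and 45.2 CPM in hypoxic shControl, 0.595, 0.503 and 0.665 CPM in normoxic shRIPOR3, and 1.98, 1.19 and 1.69 CPM in normoxic shControl cells. It followed the order of CA9 over the groups, with a log2 fold change of 2.63 (SE 0.113, edgeR adjusted p = 1.16e-15).

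IRS2, an adaptor of the insulin and IGF receptors, lies on chromosome 13 from 109752698 to 109786568 and had another order. It had 46.3, 46.9 and 49.1 CPM in hypoxic shRIPOR3, 32.1, 32.2 and 32.1 CPM in hypoxic shControl, 14.9, 14.6 and 13.3 CPM in normoxic shRIPOR3, and 7.04, 5.61 and 7.76 CPM in normoxic shControl cells. Its level was highest in hypoxic shRIPOR3 cells, at a log2 fold change of 2.76 (SE 0.0681, edgeR adjusted p = 7.88e-20). COL5A2, a fibrillar collagen chain, had 7.67 ± 0.215 CPM in hypoxic shRIPOR3, 2.78 ± 0.173 CPM in hypoxic shControl, 4.01 ± 0.414 CPM in normoxic shRIPOR3 and 1.2 ± 0.461 CPM in normoxic shControl cells (SD, n = 3 each). LAMA1, a laminin chain of basement membranes, had 7.48 ± 0.237 CPM in hypoxic shRIPOR3, 2.93 ± 0.419 CPM in hypoxic shControl, 4.50 ± 0.239 CPM in normoxic shRIPOR3 and 1.21 ± 0.367 CPM in normoxic shControl cells (SD, n = 3 each). In both genes the hairpin line was higher at either oxygen level.

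KRTAP2-3, a keratin-associated protein gene with near-identical relatives whose count is therefore uncertain, was high in both shRIPOR3 groups. It had 9.64 ± 0.589 CPM in hypoxic shRIPOR3, 2.32 ± 0.214 CPM in hypoxic shControl, 8.77 ± 0.870 CPM in normoxic shRIPOR3 and 1.17 ± 0.247 CPM in normoxic shControl cells (SD, n = 3 each). TCAF2, whose product associates with a TRP channel, had 2.29 ± 0.0794 CPM in hypoxic shRIPOR3 and 0.242 ± 0.195 CPM in normoxic shControl cells (SD, n = 3 each). The noncoding RNA LINC01293 had 3.96 ± 0.455 CPM in hypoxic shRIPOR3 and 0.746 ± 0.0307 CPM in normoxic shControl cells (SD, n = 3 each). All 8 genes were clear of the normoxic shControl libraries because their choice required it, and 65.8% of all genes tested had no overlap. Over all 1335 raised genes that stayed at least 1.5-fold higher, the median log2 fold change was 1.03 for hypoxic shRIPOR3 over normoxic shControl, 1.11 for hypoxic over normoxic shControl and 0.29 for normoxic shRIPOR3 over normoxic shControl cells. In that last comparison 487 of the 1335 were called higher and 53 lower, against 25.1% and 20.6% of all genes tested, and it shares the normoxic shControl libraries that define the set.

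**Figure D3:**
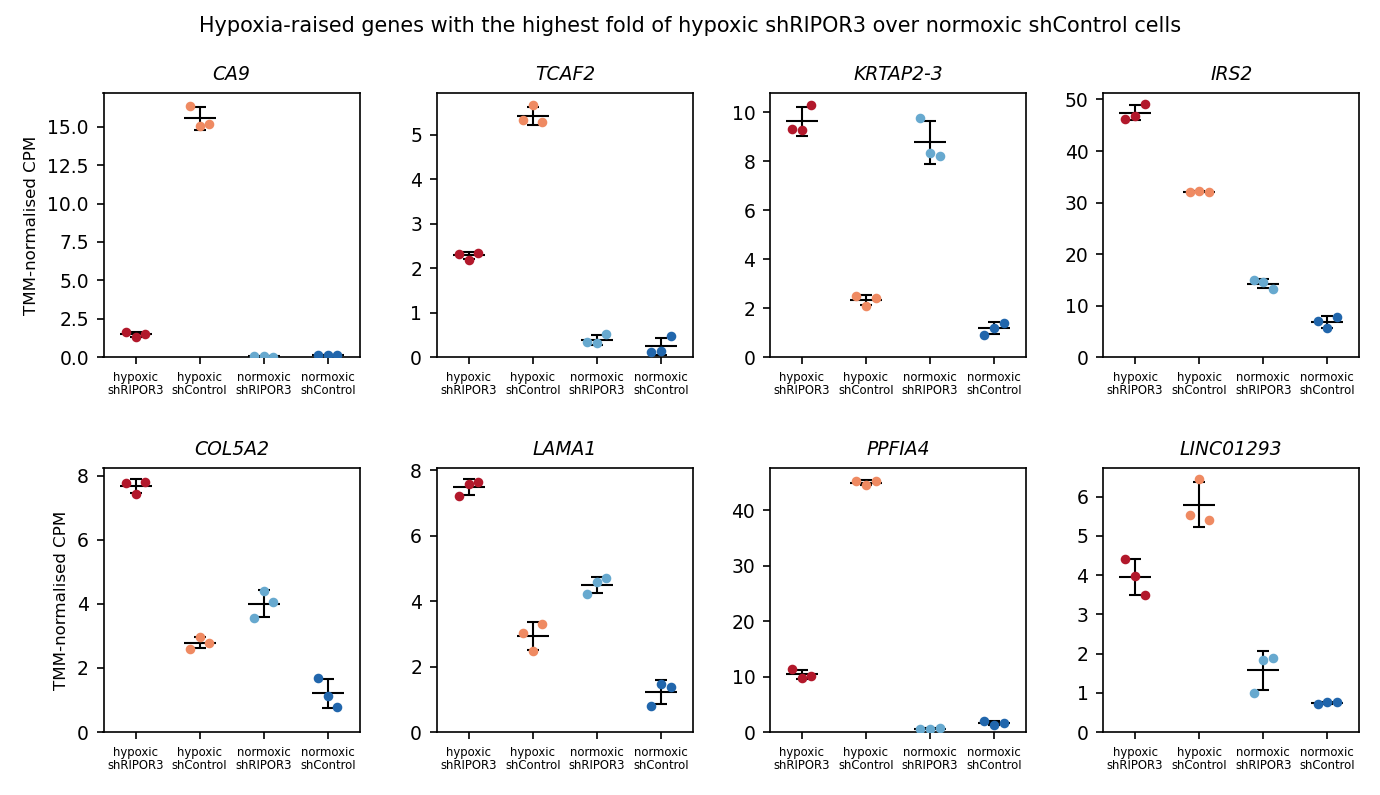
TMM-normalised CPM (y axis, from 0) of the 8 raised genes with the highest fold of hypoxic shRIPOR3 over normoxic shControl cells, with 1 point per library and the mean and SD of 3 libraries in black. Hypoxic shRIPOR3 points lie under hypoxic shControl points for CA9, TCAF2, PPFIA4 and LINC01293 and above them for KRTAP2-3, IRS2, COL5A2 and LAMA1.

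The short core of the HIF response element, read on both strands as ACGTG or CACGT, was looked for in the 250 bases before the RefSeq start of each gene. Of these 16 genes, 12 had a RefSeq promoter sequence and 5 held the core, and each is shown with 10 bases on either side because CCNG2, ARFGEF3 and PLOD2 were at the normoxic shControl level while CA9 and PPFIA4 were not. Capitals mark the core, which in CCNG2 and PPFIA4 reads the same on both strands (GRCh38.p14, 5′ to 3′ on the gene's strand).
CCNG2, chr4:77157167-77157192, plus strand: cgcggggagtCACGTGccccgccccc
ARFGEF3, chr6:138161904-138161928, plus strand: cgcggggctgACGTGgcccgcggca
PLOD2, chr3:146161370-146161394, minus strand: tgagcctccaCACGTagccgcaggc
PLOD2, chr3:146161316-146161340, minus strand: aacagtccagACGTGgggcccagga
CA9, chr9:35673900-35673924, plus strand: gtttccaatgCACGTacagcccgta
PPFIA4, chr1:203026362-203026387, plus strand: gcgctctcgtCACGTGcccggacccg

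The core was in 26.1% of the 153 raised genes at the level that had a promoter sequence, in 25.5% of the 764 still raised at least 1.5-fold and in 23.5% of the 10415 tested genes with one. These shares are near that of all genes, and nothing about binding follows from the letters. Among the raised genes that lay below the normoxic shControl level the core was in 8 of 79 promoters, or 10.1%, and among the unplaced raised genes in 17.2%. Over the classes of lowered genes the share ran from 21.9% to 25.5%. Differences between these shares were not tested.

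Genes raised by hypoxia in shControl cells but lower in hypoxic shRIPOR3 than in normoxic shControl cells numbered 114. PAEP, the secreted lipocalin glycodelin, lies on chromosome 9 from 135561756 to 135566955. It had 1.76, 1.98 and 2.27 CPM in hypoxic shRIPOR3, 23.0, 20.6 and 22.3 CPM in hypoxic shControl, 1.32, 1.92 and 1.33 CPM in normoxic shRIPOR3, and 9.37, 8.91 and 10.1 CPM in normoxic shControl cells. Both shRIPOR3 groups were under both shControl groups, and the log2 fold change of hypoxic shRIPOR3 over normoxic shControl cells was -2.25 (SE 0.107, edgeR adjusted p = 8.15e-15). CST1, a secreted cystatin that inhibits cysteine proteases, had 1.62 ± 0.157 CPM in hypoxic shRIPOR3, 14.0 ± 1.31 CPM in hypoxic shControl, 1.56 ± 0.148 CPM in normoxic shRIPOR3 and 7.51 ± 0.963 CPM in normoxic shControl cells (SD, n = 3 each). LSP1, an actin-binding protein gene of leukocytes, had 1.04 ± 0.177 CPM in hypoxic shRIPOR3 and 3.40 ± 0.333 CPM in normoxic shControl cells (SD, n = 3 each). SMIM14, APCDD1L and AL357833.1 fell as well, with log2 fold changes of -1.46, -1.26 and -1.70. Of the 114 genes, 105 were called lower in normoxic shRIPOR3 than in normoxic shControl cells, with a median log2 fold change of -1.0 there, against 20.6% of all genes tested called lower. The same normoxic shControl libraries chose these genes, so the count is a description.

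Among genes that hypoxia lowered in shControl cells, those at the normoxic shControl level included RRP9, PNO1 and POLR3G. On the ribosome biogenesis list, read further below, hypoxia had lowered 11 genes in shControl cells. Of these 3 were at the level, 7 lower by less than 1.5-fold and 1 still lowered, beside 21.4% of all lowered genes at the level. RRP9, a protein of the U3 ribonucleoprotein that processes ribosomal RNA, lies on chromosome 3 from 51933430 to 51941941. It had 115, 115 and 123 CPM in hypoxic shRIPOR3, 59.1, 53.8 and 62.4 CPM in hypoxic shControl, 160, 169 and 165 CPM in normoxic shRIPOR3, and 136, 124 and 136 CPM in normoxic shControl cells. The hypoxic shRIPOR3 libraries were lower than the normoxic shControl libraries without overlap, by a log2 fold change of -0.17 that passed the test (edgeR adjusted p = 0.00381) and stayed within the margin. PNO1, which helps assemble the small ribosomal subunit, had 45.2 ± 2.43 CPM in hypoxic shRIPOR3, 23.9 ± 0.295 CPM in hypoxic shControl, 64.6 ± 1.54 CPM in normoxic shRIPOR3 and 47.8 ± 1.91 CPM in normoxic shControl cells (SD, n = 3 each). POLR3G, an RNA polymerase III subunit, had 53.2 ± 3.16 CPM in hypoxic shRIPOR3, 24.7 ± 0.628 CPM in hypoxic shControl, 87.4 ± 2.47 CPM in normoxic shRIPOR3 and 49.5 ± 0.769 CPM in normoxic shControl cells (SD, n = 3 each).

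ANXA10, an annexin, had 4.94, 5.50 and 5.52 CPM in hypoxic shRIPOR3, 1.75, 1.99 and 1.79 CPM in hypoxic shControl, 6.47, 5.94 and 5.77 CPM in normoxic shRIPOR3, and 4.63, 5.19 and 5.03 CPM in normoxic shControl cells. Hypoxic shControl libraries were far under all others, hypoxic shRIPOR3 and normoxic shControl libraries overlapped, with a 90% interval of -0.05 to 0.27 for the log2 fold change, and normoxic shRIPOR3 libraries were above both. In normoxia the log2 fold change of shRIPOR3 over shControl was 0.29 (edgeR adjusted p = 0.0270). SCG2, a secretory granule protein, and CD22, a lectin known from B cells, lay at log2 fold changes of 0.11 and -0.14. Of the 248 lowered genes at the level, 212 were called higher in normoxic shRIPOR3 than in normoxic shControl cells and 2 lower, against 25.1% and 20.6% of all genes tested, with a median log2 fold change of 0.29 there. The normoxic shControl libraries also define the set, so these counts describe it and do not test it.

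The genes that stayed lowered were 291 of the 15648 tested, and 5 of the 22 tested genes on the interferon-stimulated list. OASL, IFIT1 and IFI44 were among the named genes with the lowest fold. OASL, an antiviral relative of the oligoadenylate synthetases, lies on chromosome 12 from 121019111 to 121039242. It had 2.66, 3.06 and 3.60 CPM in hypoxic shRIPOR3, 9.50, 8.82 and 9.62 CPM in hypoxic shControl, 3.30, 3.98 and 4.30 CPM in normoxic shRIPOR3, and 18.9, 17.9 and 18.3 CPM in normoxic shControl cells. Its log2 fold change was -2.56 (SE 0.0908, edgeR adjusted p = 3.31e-17), the lowest of the lowered genes named. IFIT1, which binds viral RNA, had 7.78, 7.75 and 8.14 CPM in hypoxic shRIPOR3, 16.4, 16.1 and 16.0 CPM in hypoxic shControl, 11.4, 10.4 and 11.8 CPM in normoxic shRIPOR3, and 34.3, 37.0 and 32.4 CPM in normoxic shControl cells. Hypoxia and the hairpin were each on the lower side of normoxic shControl for both genes, and hypoxic shRIPOR3 cells held the lowest level. PASD1, a cancer-testis gene, had 19.1 ± 0.105 CPM in hypoxic shRIPOR3 and 64.5 ± 4.90 CPM in normoxic shControl cells, and IFI44 had 3.31 ± 0.275 CPM in hypoxic shRIPOR3 and 11.5 ± 1.75 CPM in normoxic shControl cells (SD, n = 3 each).

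SERF1B and SSX2B, which have near-identical copies, rest on uneven normoxic shControl libraries. SERF1B had 6.74, 6.42 and 5.69 CPM in hypoxic shRIPOR3 and 23.0, 79.5 and 8.51 CPM in normoxic shControl cells. SSX2B had 1.62, 1.92 and 1.87 CPM in hypoxic shRIPOR3 and 14.2, 2.53 and 2.34 CPM in normoxic shControl cells, so its log2 fold change of -1.90 was -0.43 (edgeR adjusted p = 0.138) without normoxic shControl replicate 1.

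A small set of 27 lowered genes lay above the normoxic shControl level. GAS5, a noncoding host gene of small nucleolar RNAs, lies on chromosome 1 from 173863900 to 173868882. It had 268, 252 and 251 CPM in hypoxic shRIPOR3, 108, 112 and 110 CPM in hypoxic shControl, 396, 382 and 397 CPM in normoxic shRIPOR3, and 163, 165 and 172 CPM in normoxic shControl cells. Hypoxia was followed by a lower level in both lines, by -0.61 on the log2 scale in shRIPOR3 and -0.60 in shControl cells, and the shRIPOR3 line was higher at both oxygen levels. KRT81, a hair keratin gene with close relatives, had 351 ± 19.0 CPM in hypoxic shRIPOR3 and 243 ± 53.8 CPM in normoxic shControl cells (SD, n = 3 each), and TRMT61A, a tRNA methyltransferase gene, had 27.4 ± 1.26 CPM in hypoxic shRIPOR3 and 18.6 ± 1.59 CPM in normoxic shControl cells. TPD52L1 was higher in hypoxic shRIPOR3 than in normoxic shControl cells by a log2 fold change of 0.60. From normoxia to hypoxia it was lower in both lines, by -0.50 in shRIPOR3 and -0.61 in shControl cells.

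Some genes differed between hypoxic shRIPOR3 and normoxic shControl cells although hypoxia left them flat in shControl cells. Flat meant that the 90% interval of hypoxic over normoxic shControl lay within 5/4-fold, which held for 3691 genes, or 23.6%. Of these, 111 (3.01%) were at least 1.5-fold higher in hypoxic shRIPOR3 than in normoxic shControl cells and 229 (6.20%) at least 1.5-fold lower. PRSS2, a trypsinogen with close relatives, had 0.762, 0.569 and 0.658 CPM in hypoxic shRIPOR3, 10.3, 8.85 and 8.73 CPM in hypoxic shControl, 0.595, 0.549 and 0.525 CPM in normoxic shRIPOR3, and 10.1, 8.84 and 9.81 CPM in normoxic shControl cells. CD82, a tetraspanin described as a suppressor of metastasis, lies on chromosome 11 from 44564427 to 44620363 and had 1.30, 1.41 and 1.32 CPM in hypoxic shRIPOR3, 8.18, 8.76 and 7.78 CPM in hypoxic shControl, 1.65, 1.10 and 1.19 CPM in normoxic shRIPOR3, and 8.86, 8.56 and 9.16 CPM in normoxic shControl cells. Both genes split by hairpin and not by oxygen, with log2 fold changes of -3.84 (SE 0.126) and -2.73 (SE 0.108) and edgeR adjusted p-values of 1.03e-17 and 2.41e-16.

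RABL6, a Rab-like GTPase gene, had 34.6 ± 2.59 CPM in hypoxic shRIPOR3, 150 ± 9.71 CPM in hypoxic shControl, 31.0 ± 2.40 CPM in normoxic shRIPOR3 and 165 ± 2.55 CPM in normoxic shControl cells (SD, n = 3 each). DNM1, which encodes the membrane-cutting GTPase dynamin 1, had 5.43 ± 1.11 CPM in hypoxic shRIPOR3 and 28.4 ± 1.57 CPM in normoxic shControl cells (SD, n = 3 each). AFAP1L2, MYO1F and SPTLC3, an actin-associated adaptor, an unconventional myosin and a sphingolipid enzyme subunit, fell by 2.00, 1.87 and 1.63 on the log2 scale.

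Among flat genes that rose, the metallothionein gene MT1E, one of a family of near-identical genes, had 35.0, 32.9 and 33.6 CPM in hypoxic shRIPOR3, 12.8, 12 and 12.8 CPM in hypoxic shControl, 31.0, 34.6 and 34.8 CPM in normoxic shRIPOR3, and 10.7, 14.0 and 11.6 CPM in normoxic shControl cells. HIST1H1C, a linker histone gene, had 102 ± 2.94 CPM in hypoxic shRIPOR3, 35.1 ± 2.94 CPM in hypoxic shControl, 78.9 ± 3.30 CPM in normoxic shRIPOR3 and 36.8 ± 1.22 CPM in normoxic shControl cells (SD, n = 3 each). The lipid phosphatase gene PLPP3 and the potassium channel gene KCNN4 rose by log2 fold changes of 1.34 and 1.17. TNFRSF11B, which encodes osteoprotegerin, the protease inhibitor gene SERPINB7, the membrane peptidase gene DPP4 and ESM1, which encodes endocan, were higher by 1.33, 1.32, 1.21 and 1.15. Within shRIPOR3 cells hypoxia went with lower TNFRSF11B and ESM1 (-0.29 and -0.46) and higher PLPP3 and KCNN4 (0.63 and 0.22). For SERPINB7 and DPP4 that difference did not pass the test. Of the 111 higher flat genes 108 were called higher in normoxic shRIPOR3 than in normoxic shControl cells, and of the 229 lower ones 227 were called lower there, against 25.1% and 20.6% of all genes tested. Both sets were chosen with the same normoxic shControl libraries, so these counts describe them. Knockdown columns at both oxygen levels carry 1 hairpin tag, so loss of RIPOR3 and other properties of that hairpin or line cannot be told apart.

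HIF subunit messages did not move together. HIF1A, the gene of the main oxygen-regulated subunit, lies on chromosome 14 from 61695513 to 61748259. It had 59.8, 62.6 and 62.7 CPM in hypoxic shRIPOR3, 63.9, 67.7 and 63.2 CPM in hypoxic shControl, 100, 102 and 107 CPM in normoxic shRIPOR3, and 180, 180 and 180 CPM in normoxic shControl cells. HIF1A message was thus lower in hypoxic shRIPOR3 than in normoxic shControl cells without overlap, at a log2 fold change of -1.54 (SE 0.0384, edgeR adjusted p = 8.1e-20), and the 2 hypoxic groups were close. EPAS1, which encodes HIF2A, lies on chromosome 2 from 46293667 to 46386703. It had 8.12, 8.02 and 7.85 CPM in hypoxic shRIPOR3, 17.8, 16.7 and 17.5 CPM in hypoxic shControl, 5.09, 5.94 and 5.84 CPM in normoxic shRIPOR3, and 7.71, 8.14 and 7.87 CPM in normoxic shControl cells. EPAS1 thus met the definition of a raised gene at the normoxic shControl level, with a 90% interval of -0.11 to 0.15. Messages say nothing of the HIF proteins, which oxygen controls after translation.

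Lists of genes are read below against the 30.4% of all genes tested that were called higher and the 31.8% called lower in hypoxic shRIPOR3 than in normoxic shControl cells. Known HIF targets mostly stayed above the normoxic shControl level. Of 35 tested, 29 were called higher and 2 lower, with a median log2 fold change of 0.82, against 1.49 for hypoxic over normoxic shControl, and the median of all tested genes was 0.005. Hypoxia had raised 32 of them in shControl cells, of which 23 stayed at least 1.5-fold higher, 5 stayed higher by less and 2 were at the level. NDRG1, a stress-responsive gene used as a hypoxia marker, had 486, 471 and 493 CPM in hypoxic shRIPOR3, 2005, 1945 and 1962 CPM in hypoxic shControl, 71.7, 72.5 and 70.5 CPM in normoxic shRIPOR3, and 170, 161 and 169 CPM in normoxic shControl cells. VEGFA, the angiogenic growth factor, had 166, 165 and 165 CPM in hypoxic shRIPOR3, 340, 330 and 324 CPM in hypoxic shControl, 78.6, 81.3 and 85.7 CPM in normoxic shRIPOR3, and 104, 101 and 99.6 CPM in normoxic shControl cells. In both genes hypoxic shRIPOR3 lay between hypoxic and normoxic shControl, with log2 fold changes of 1.53 (SE 0.0378) and 0.71 (SE 0.0380).

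LOX, the lysyl oxidase that cross-links collagen, had 14.9, 13.3 and 13.6 CPM in hypoxic shRIPOR3, 24.4, 23.8 and 23.7 CPM in hypoxic shControl, 6.01, 6.31 and 6.86 CPM in normoxic shRIPOR3, and 3.88, 1.75 and 2.91 CPM in normoxic shControl cells. ADM, which encodes the vasodilator peptide adrenomedullin, was higher in hypoxic shRIPOR3 than in hypoxic shControl cells, with 99.6, 95.3 and 105 CPM in hypoxic shRIPOR3, 73.4, 70.9 and 75.1 CPM in hypoxic shControl, 77.2, 75.3 and 78.3 CPM in normoxic shRIPOR3, and 33.0, 32.5 and 34.9 CPM in normoxic shControl cells. At the other end, the cholesterol regulator INSIG2 was at the level beside PLOD2, with 21.4 ± 1.27 CPM in hypoxic shRIPOR3 and 20.2 ± 1.27 CPM in normoxic shControl cells (SD, n = 3 each). BHLHE40, a transcriptional repressor, was raised by 2.40 on the log2 scale in hypoxic shControl cells but by 0.34 in hypoxic shRIPOR3 cells, both over normoxic shControl. CA12, a carbonic anhydrase, fell by 0.46 on the log2 scale in hypoxic shRIPOR3 cells, and EGLN3, a prolyl hydroxylase gene, was too scarce to place.

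**Figure D4:**
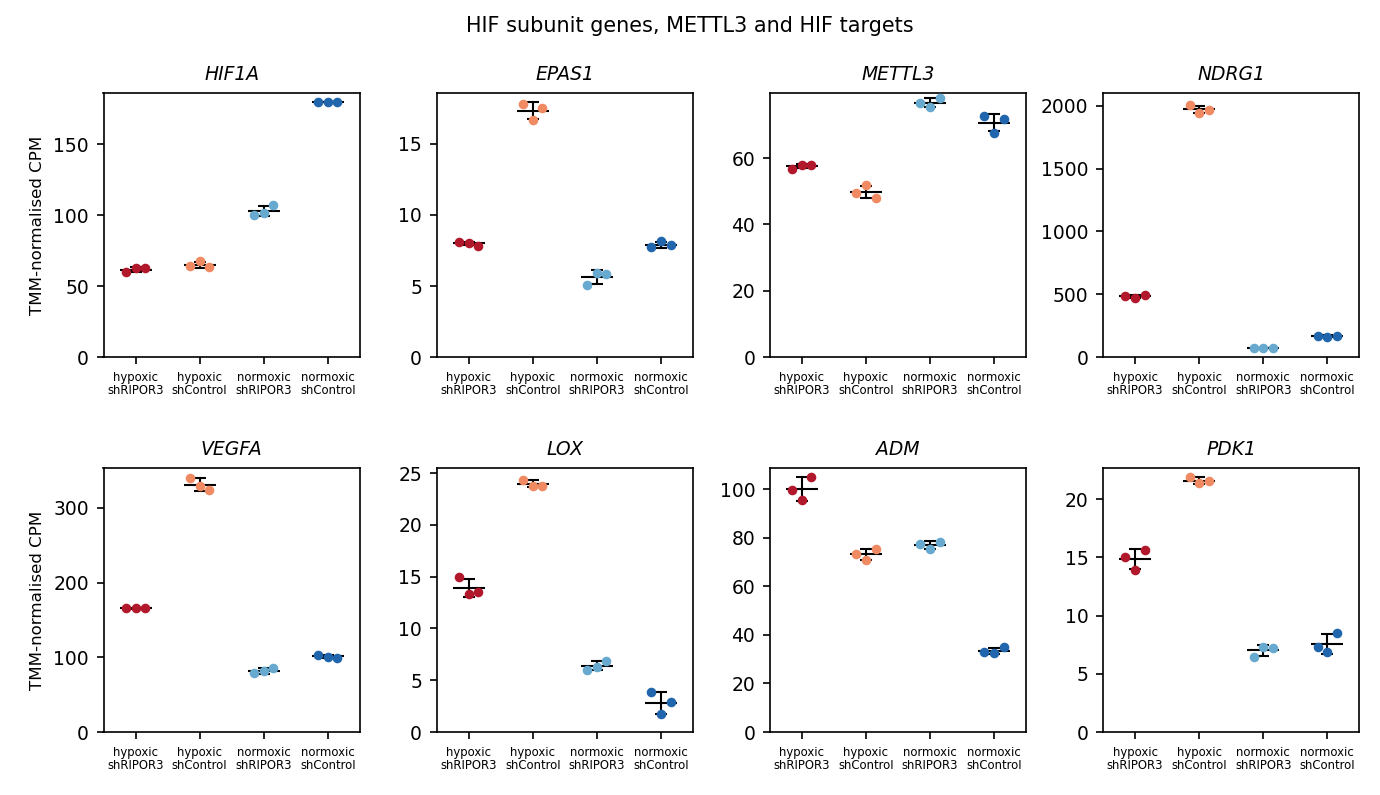
TMM-normalised CPM (y axis, from 0) of HIF1A, EPAS1, METTL3 and 5 HIF targets, with 1 point per library and the mean and SD of 3 libraries in black. HIF1A is lowest in both hypoxic groups, EPAS1 in hypoxic shRIPOR3 cells is beside normoxic shControl, and NDRG1, VEGFA, LOX and PDK1 lie between hypoxic and normoxic shControl.

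Glycolysis genes kept part of their rise. Of 20 tested, 14 were called higher and 1 lower, the pyruvate kinase gene PKM at -0.24, with a median log2 fold change of 0.38, against 0.79 for hypoxic over normoxic shControl. The list includes ALDOA, the gene of a major aldolase, whose count was low for such an enzyme, with 12.2 ± 0.918 CPM in hypoxic shRIPOR3 and 7.18 ± 0.697 CPM in normoxic shControl cells (SD, n = 3 each), and why was not tested. HK2, the inducible hexokinase that starts glycolysis, had 252, 242 and 238 CPM in hypoxic shRIPOR3, 289, 305 and 293 CPM in hypoxic shControl, 76.4, 76.0 and 75.4 CPM in normoxic shRIPOR3, and 57.3, 57.7 and 57.0 CPM in normoxic shControl cells. It stayed near the hypoxic shControl level, at a log2 fold change of 2.09 (SE 0.0389). PGK1, LDHA and SLC2A1, which make ATP, turn pyruvate into lactate and carry glucose, rose by 0.43, 0.35 and 0.78 on the log2 scale. Within the 5/4-fold margin lay 8 of the 20, called or not. Among these, ENO2, the neuronal enolase, and PFKL, a phosphofructokinase, were raised in hypoxic shControl cells and stood at the level in hypoxic shRIPOR3 cells, with log2 fold changes of 0.10 and 0.13.

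Matrix genes also stayed raised for the most part. Of 29 tested, 23 were called higher and 2 lower, with a median log2 fold change of 0.62, against 1.07 for hypoxic over normoxic shControl. CTGF, the matricellular protein also called CCN2, had 746, 737 and 747 CPM in hypoxic shRIPOR3, 588, 562 and 557 CPM in hypoxic shControl, 305, 307 and 309 CPM in normoxic shRIPOR3, and 150, 149 and 157 CPM in normoxic shControl cells. THBS1, thrombospondin 1, had 317 ± 2.91 CPM in hypoxic shRIPOR3, 197 ± 3.84 CPM in hypoxic shControl, 132 ± 2.27 CPM in normoxic shRIPOR3 and 75.8 ± 1.59 CPM in normoxic shControl cells (SD, n = 3 each). Both were highest in hypoxic shRIPOR3 cells. FN1, fibronectin, had 531 ± 9.49 CPM in hypoxic shRIPOR3, 1359 ± 45.9 CPM in hypoxic shControl, 182 ± 2.05 CPM in normoxic shRIPOR3 and 340 ± 6.39 CPM in normoxic shControl cells (SD, n = 3 each), which placed hypoxic shRIPOR3 between the shControl groups. The 2 that fell were collagen VI chains, COL6A1 by 0.89 and COL6A2 by 0.90 on the log2 scale. PLOD2 and PLOD1 were the members of the list at the level.

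The mitochondrial and ribosomal lists were on the lower side, with medians nearer 0 than those of hypoxic over normoxic shControl. Within shRIPOR3 cells, the median of hypoxic over normoxic was -0.44 for oxidative phosphorylation, -0.31 for the tricarboxylic acid cycle and -0.46 for ribosomal proteins. In the same order, the medians of normoxic shRIPOR3 over normoxic shControl were 0.18, 0.05 and 0.19. Of 30 oxidative phosphorylation genes, 22 were called lower and 1 higher, with a median log2 fold change of -0.27, against -0.55 for hypoxic over normoxic shControl. ATP5A1 and ATP5B, subunits of the ATP synthase, fell by 0.55 and 0.42 on the log2 scale. Within the 5/4-fold margin lay 8 of the 30, called or not, among them NDUFV1, a complex I subunit, at -0.02. NDUFA9, another complex I subunit on the list, had a low count of 1.90 ± 0.263 CPM in hypoxic shRIPOR3 and 2.32 ± 0.424 CPM in normoxic shControl cells (SD, n = 3 each), and it did not pass the test. Of 16 tricarboxylic acid cycle genes, 11 were called lower and 0 higher, with a median of -0.20 against -0.38. Within the 5/4-fold margin lay 9 of the 16, called or not, among them MDH2, IDH3B and CS. Of 28 cytosolic ribosomal protein genes, 24 were called lower and 0 higher, with a median of -0.24 against -0.52, and 15 of the 28 lay within the 5/4-fold margin, called or not. RPLP1 fell most, by 0.99 on the log2 scale. With raw library totals the medians for hypoxic shRIPOR3 over normoxic shControl were -0.157 for oxidative phosphorylation, -0.088 for the tricarboxylic acid cycle and -0.127 for ribosomal proteins, where the median of all genes was 0.12. Ribosomal protein genes have many processed pseudogenes, which can take part of their reads.

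Ribosome biogenesis genes split, with 17 of 25 called lower and 6 higher and a median log2 fold change of -0.24 (-0.127 with raw library totals), against -0.58 for hypoxic over normoxic shControl. NOC3L, NOP58 and NOP56 fell by 0.80, 0.56 and 0.48 on the log2 scale. POLR1A, the largest subunit of RNA polymerase I, and RRS1, a ribosome assembly factor, rose by 0.58 and 0.45.

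Amino acid response genes were mostly higher in hypoxic shRIPOR3 cells. Of 20 targets and partners of ATF4, a transcription factor of the stress response, 18 were called higher and 1 lower, with a median log2 fold change of 0.70, against 0.18 for hypoxic over normoxic shControl. The list median was also 0.70 for normoxic shRIPOR3 over normoxic shControl, and it was 0.02 for hypoxic over normoxic shRIPOR3. SLC3A2, which encodes the heavy chain of amino acid transporters, had 323, 322 and 316 CPM in hypoxic shRIPOR3, 187, 184 and 198 CPM in hypoxic shControl, 280, 274 and 286 CPM in normoxic shRIPOR3, and 155, 151 and 160 CPM in normoxic shControl cells. PSAT1, an enzyme of serine synthesis, had 118, 119 and 122 CPM in hypoxic shRIPOR3, 59.7, 61.3 and 59.1 CPM in hypoxic shControl, 129, 127 and 123 CPM in normoxic shRIPOR3, and 63.7, 63.6 and 67.1 CPM in normoxic shControl cells. PSAT1 was split by hairpin with the oxygen level hardly visible. ATF4 itself rose by 0.61 on the log2 scale. ASNS, the asparagine synthetase gene, counts among the 18 at only 0.485 ± 0.0803 CPM in hypoxic shRIPOR3 and 0.0473 ± 0.0410 CPM in normoxic shControl cells (SD, n = 3 each).

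Cholesterol synthesis genes had medians of opposite sign in the 2 comparisons. Of 24 tested, 15 were called lower and 2 higher, with a median log2 fold change of -0.26 (-0.153 with raw library totals), against 0.31 for hypoxic over normoxic shControl. The list median was -0.22 for normoxic shRIPOR3 over normoxic shControl and -0.06 for hypoxic over normoxic shRIPOR3. HMGCS1, an early enzyme of the mevalonate pathway, had 43.8, 45.0 and 44.0 CPM in hypoxic shRIPOR3, 109, 110 and 113 CPM in hypoxic shControl, 42.4, 44.9 and 42.2 CPM in normoxic shRIPOR3, and 66.9, 65.4 and 68.4 CPM in normoxic shControl cells. The hypoxic and normoxic shRIPOR3 libraries overlapped, and all 6 were below the normoxic shControl libraries. Within the 5/4-fold margin lay 10 of the 24, called or not. Among these, INSIG1 and STARD4, which sense and move cholesterol, had been raised in hypoxic shControl cells and were at the level in hypoxic shRIPOR3 cells.

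Interferon-stimulated genes were lower as a list, with 16 of 22 called lower and 2 higher and a median log2 fold change of -0.62, against -0.38 for hypoxic over normoxic shControl. The list median was -0.52 for normoxic shRIPOR3 over normoxic shControl and -0.19 for hypoxic over normoxic shRIPOR3. IFIT2 and IFIT3 fell by 1.59 and 1.37 on the log2 scale, while OAS3 rose by 0.59.

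Proliferation genes were lower by smaller steps. Of 24 G2/M genes, 18 were called lower and 2 higher, with a median log2 fold change of -0.44, against -0.33 for hypoxic over normoxic shControl. CDK1, the mitotic kinase, fell by 0.66 on the log2 scale, and MKI67, the antigen used to score proliferation, rose by 0.43. MKI67 had 1368, 1424 and 1376 CPM in hypoxic shRIPOR3, 2245, 2204 and 2135 CPM in hypoxic shControl, 733, 704 and 720 CPM in normoxic shRIPOR3, and 1029, 1042 and 1031 CPM in normoxic shControl cells. Of 28 DNA replication genes, 18 were called lower and 4 higher, with a median of -0.24 (-0.129 with raw library totals) against -0.36, and RRM1, a subunit of ribonucleotide reductase, fell by 0.72.

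**Figure D5:**
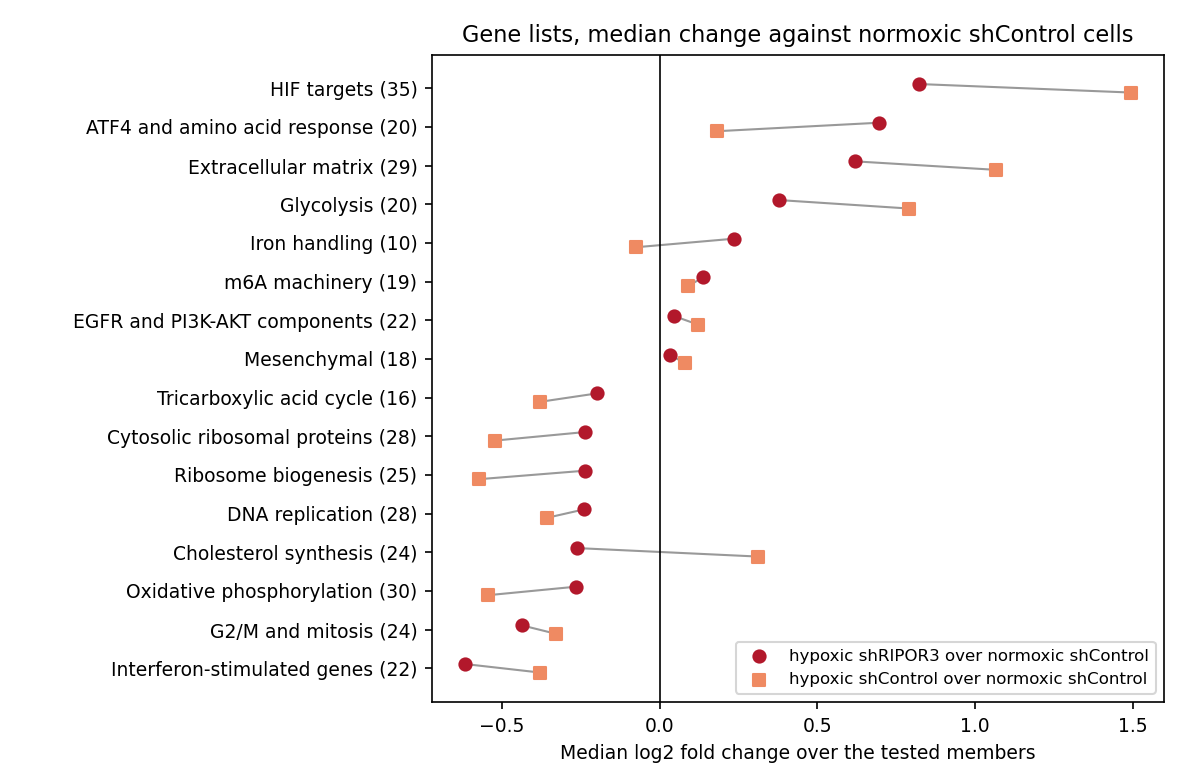
Median log2 fold change (x axis) over the tested members of 16 gene lists, with the number of members in brackets. Circles are hypoxic shRIPOR3 over normoxic shControl and squares hypoxic over normoxic shControl, which share the normoxic shControl libraries; HIF targets stand at 0.82 and 1.49, and cholesterol synthesis at -0.26 and 0.31.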

How the data were processed

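Per the labels' protocols, RNA went through a stranded mRNA library kit. The authors deposited raw counts per gene symbol, 1 column for each of 12 libraries, and the values are whole numbers with unequal totals. Tools named in the submitters' processing notes are fastp 0.23.4, STAR 2.5.3a and featureCounts, with GRCh38 as build, while annotation, strand setting and duplicate handling are not stated. The table held 24 symbols turned into dates, with 0.2% of the counts. Coordinates come from GENCODE 29 (GRCh38), in which 15342 tested symbols matched 1 gene, and promoters from RefSeq (GRCh38.p14).

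After filterByExpr, edgeR 4.0.16 under R 4.3.3 fitted the 4 groups of all 12 libraries together, with TMM factors of 0.952 to 1.05 and a biological coefficient of variation of 3.74%. Quasi-likelihood F-tests were adjusted by Benjamini and Hochberg over 15648 genes at a threshold of 0.05. SE is edgeR's unshrunken log2 fold change divided by the root of F. Where it differed widely from the reported log2 fold change, the reported value was divided instead. The 90% interval lies around the reported log2 fold change and is that of a pair of one-sided tests. A gene within the margin counts as at the level even where it passes the test. Intervals on RIPOR3 counts are exact, at 95%, for counting error only.

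The members, lists, margin and tests were chosen with earlier results of these data known. Named genes are RIPOR3, METTL3, HIF1A and EPAS1, and in each set up to 8 genes with at least 5 CPM in the highest group. They were ranked by the hypoxic change in shControl where hypoxic shRIPOR3 was at the level and otherwise by the fold of hypoxic shRIPOR3 over normoxic shControl, where the libraries also had to be without overlap. Up to 4 members of each list with the smallest p-values were added, and further list members were chosen after their values were seen. A few genes that these rules name are not reported here. Of 20 lists, the epithelial, luminal, blood and endothelial and fibroblast markers served as checks.

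The pipeline was checked on simulated data for hypoxic shRIPOR3 over normoxic shControl before use. Replicate numbers did not pair the libraries. Alternatives were DESeq2 1.42.0, other scalings, filters, margins and thresholds, thinning to 1 total, a replicate block and leaving out each library.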

Additional observations from a re-analysis of the deposited data

Results flagged for a closer look

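For 33 of the 58 genes named by the rule, the change from normoxia to hypoxia differed between shRIPOR3 and shControl cells in a test of the difference itself (edgeR, adjusted p under 0.05), against 23.2% of all genes tested. The sets were defined from some of the same libraries, so this share describes them and does not test them. Values are the log2 fold change of hypoxia in shRIPOR3 minus that in shControl. All 8 raised genes at the normoxic shControl level differed, CCNG2 at -1.04, MUC1 at -1.12, ERRFI1 at -0.88, LUCAT1 at -1.43, ALPP at -0.97, ARFGEF3 at -1.03, PLOD2 at -0.79 and PLAT at -0.91. Of the 8 genes still raised, TCAF2 stood at -1.86, KRTAP2-3 at -0.83, IRS2 at -0.45, LAMA1 at -0.60 and LINC01293 at -1.70. For CA9 and PPFIA4, which were far lower in hypoxic shRIPOR3 than in hypoxic shControl cells, the difference did not pass (-1.36 and -0.61, adjusted p = 0.517 and 0.111). In normoxia PPFIA4 was called lower in shRIPOR3 than in shControl cells, and CA9 was not (log2 fold changes of -1.5 and -2.0, edgeR adjusted p = 1.22e-05 and 0.0653). Among raised genes below the normoxic shControl level, PAEP stood at -0.81, CST1 at -0.80 and SMIM14 at -0.92.

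All 6 lowered genes at the level differed with the opposite sign, ANXA10 at 1.24, RRP9 at 0.70, SCG2 at 0.88, CD22 at 1.18, POLR3G at 0.28 and PNO1 at 0.48. Of the other lowered genes, OASL stood at 0.64, SERF1B at 2.26, IFIT1 at 0.58, TRMT61A at 0.71 and KRT81 at 0.42. SERF1B rests on normoxic shControl libraries that ran from 8.51 to 79.5 CPM. Among genes flat in shControl cells, HIST1H1C stood at 0.43, PLPP3 at 0.48, ESM1 at -0.48 and RABL6 at 0.29. HIF1A, whose message was lower in hypoxia in both lines, stood at 0.73 and EPAS1 at -0.65.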

How the results depend on the processing

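No value that passed the test changed direction. Values that did not pass it with all libraries and TMM factors changed sign for CCNG2 (-0.05 to 0.11), MUC1 (-0.08 to 0.17), LUCAT1 (-0.06 to 0.17), ALPP (-0.16 to 0.06) and PNO1 (-0.12 to 0.03), and the epithelial and fibroblast medians were 0.024 and 0.035 with library totals. Genes called higher and lower numbered 4764 and 4971, but 6141 and 3725 with library totals and 4987 and 4771 with upper-quartile scaling. In all 20 list medians moved and 340 did not, and most of the moves came with library totals, which put the m6A, EGF receptor and mesenchymal medians at 0.247, 0.156 and 0.143. With raw library totals in place of TMM factors, 566 genes counted as lowered by hypoxia, of which 152 were at the level, 116 still lowered, 182 lowered by less than 1.5-fold and 95 unplaced, and 118 of the 195 raised genes at the level kept that place. A filter of 1 CPM in 3 libraries left 301 raised and 77 lowered genes unplaced. A margin of 1.5-fold put 596 raised and 677 lowered genes at the level, 182 and 105 partly changed, 14 lowered genes above and 70 unplaced, and made 8194 genes flat, of which 335 were higher and 654 lower. A margin of 1.2-fold put 127 raised genes at the level and left 64 flat genes higher. With a response of 2-fold, 1245 genes were raised (39 at the level, 558 still raised, 18 below, 314 unplaced) and 112 lowered (6 at the level, 38 still lowered, 32 partly, 4 above, 32 unplaced), with 11 flat genes higher and 47 lower.

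Leaving out each library gave 8897 to 9846 called genes, 4305 to 4971 higher and 4589 to 4978 lower. Raised genes numbered 2542 to 2699, with 159 to 197 at the level, 1244 to 1356 still raised, 365 to 406 partly, 84 to 115 below and 587 to 762 unplaced. Lowered genes numbered 1127 to 1212, with 220 to 283 at the level, 266 to 312 still lowered, 441 to 476 partly, 23 to 30 above and 134 to 180 unplaced. Flat genes numbered 3300 to 3692, 90 to 117 higher and 191 to 234 lower. Same-numbered libraries did not deviate together (median correlation 0.00634 over 18 pairs), and a replicate block gave 9739 called genes and 193 raised genes at the level, 191 of them shared. Of the values for named genes under all alternatives, 14 passed the test where the main value did not and 16 lost it. The 628 unplaced genes among the 2665 raised had a median of 0.655 CPM. With all libraries thinned to 1 total, 548 of 2244 raised genes were unplaced. Whether depth or low level left these genes unplaced was not tested. The cause of these shifts was not tested.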

Other observations

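The m6A machinery, tied to RIPOR3 by the study's title, was mixed. Of 19 genes tested, 10 were called higher and 6 lower in hypoxic shRIPOR3 than in normoxic shControl cells, where 30.4% of all genes tested were higher and 31.8% lower, so the share of lower calls was near that of all genes. The median log2 fold change was 0.14, against 0.09 for hypoxic over normoxic shControl. The writer pair METTL3 and METTL14 fell by 0.30 and 0.56 on the log2 scale, while the writer partners RBM15 and RBM15B rose by 0.71 and 0.76 and the demethylase gene ALKBH5 by 0.63. For METTL3 the log2 fold change was -0.51 for hypoxic over normoxic shControl and 0.11 for normoxic shRIPOR3 over normoxic shControl. Among 22 EGF receptor and PI3K-AKT components, 9 were higher and 7 lower with a median of 0.05, against 0.12, again with a share of lower calls near that of all genes. The ligand genes AREG, TGFA and HBEGF fell by 1.13, 0.78 and 0.59 on the log2 scale, beside the rise of EGFR.

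Mesenchymal genes split as well, with 7 of 18 higher and 8 lower and a median of 0.03, against 0.08, beside 30.4% and 31.8% of all genes. S100A4, a calcium-binding protein of motile cells, had 5.54, 5.26 and 5.10 CPM in hypoxic shRIPOR3 and 21.0, 20.0 and 19.9 CPM in normoxic shControl cells, and TAGLN, an actin-binding protein, had 14.3 ± 0.429 CPM in hypoxic shRIPOR3 and 44.6 ± 3.78 CPM in normoxic shControl cells (SD, n = 3 each). SNAI2, a transcription factor of epithelial-mesenchymal transition, rose by 0.80 on the log2 scale, ZEB1 fell by 0.66, and VIM stayed within the margin at 0.22. Epithelial genes had 2 of 15 higher and 4 lower, and luminal genes 2 of 10 higher and 2 lower.

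Of 10 iron-handling genes, 6 were higher and 2 lower with a median of 0.24, against -0.07. FTL, the ferritin light chain, had 233, 212 and 232 CPM in hypoxic shRIPOR3 and 132, 123 and 130 CPM in normoxic shControl cells, and SLC40A1, which encodes the iron exporter ferroportin, fell by 0.83 on the log2 scale. Of 6 blood and endothelial markers tested, 1 was higher and 3 lower, among them PECAM1 at -2.02, and of 5 fibroblast markers 0 were higher and 1 lower, THY1 at -0.59.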
